A study of Mus musculus with 8 samples.

Results

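Accessible chromatin was described around 10 genes of progenitor spermatogonia, namely Neurog3, Sox3, Zbtb16, Sall4, Foxo1, Upp1, Nanos3, Lin28a, Cdh1 and Taf4b. A peak, a stretch where ATAC-seq tags pile up, was taken as a member when the gene list that the deposited table assigns to it held 1 of these symbols exactly. This gave 211 of the 328733 peaks in the table. Peaks that overlapped by at least 1 bp in any of the libraries were joined into regions, and the 10 genes, out of 21490 genes with a peak, held 54 of the 87144 regions. Gene positions are those of GENCODE on GRCm38 unless said otherwise. Regions are named here by their gene and by the distance of their highest summit from the gene start that the deposited table uses, negative upstream and positive downstream.

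In ATAC-seq a transposase inserts adapters into open DNA. The assay was run on eGFP-positive germ cells sorted from testes of PIWIL2-eGFP mice. All mice were fed WIN 18,446, which blocks the synthesis of retinoic acid (RA), at 100 mg/kg daily for 7 days from 2 dpp. The 0 h mice received no RA. The others received 200 µg of RA by injection at 9 dpp and were collected 18, 48 or 120 h later, so that each timepoint has 2 libraries of 1 mouse each. According to the labels the mice derive from C57BL/6 and 129s4/SvJae and 100000 cells went into a library, while the methods name a C57BL/6 x SJL background and 50000 cells. The transgene is driven by the Piwil2 promoter, which is active in germ cells of many stages, so the sort selected germ cells but no spermatogonial stage, and the stage rests on the synchrony treatment. In such bulk libraries, fewer cells of a type and less open chromatin per cell cannot be told apart.

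In the mouse testis, undifferentiated spermatogonia include stem cells, which depend on GDNF, and progenitors, which divide in chains and respond to RA. RA moves progenitors into differentiation, the step at which Stra8 and Kit are induced. The 10 genes are known as transcripts or proteins of the progenitor pool, and several of them are shared with stem cells. Open chromatin at a gene is a state of its DNA and was not a measure of its transcript.

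The sequences below are those of member regions chosen by their pattern of peaks or their height, and of the Nanos3 promoter. They come from the GRCm38 (mm10) assembly of RefSeq. Of these regions only Neurog3 -4226 and Cdh1 +71192 had a peak in every library and entered the main test of heights below. Each window holds the 200 bases around the highest summit, written on the forward strand, and the Nanos3 promoter holds the 250 bases before the RefSeq start, written on the reverse strand on which the gene lies. None of them overlapped a GENCODE exon. Capitals mark the motifs searched, on either strand, of which GGGCGG (a GC box), CCAAT (a promoter box) and ACAAAG (a motif of SOX factors) occurred. On the other strand the promoter box reads ATTGG, and the SOX motif reads CTTTGT. The first is the upstream Neurog3 region that had a peak in every library (chr10:62128781-62128980).
Neurog3 -4226: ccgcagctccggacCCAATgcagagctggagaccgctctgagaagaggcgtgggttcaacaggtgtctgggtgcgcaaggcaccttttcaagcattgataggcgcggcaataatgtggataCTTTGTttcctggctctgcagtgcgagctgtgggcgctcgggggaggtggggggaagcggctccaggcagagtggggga
The next is the Neurog3 region that had peaks at 120 h only (chr10:62135565-62135764).
Neurog3 2558: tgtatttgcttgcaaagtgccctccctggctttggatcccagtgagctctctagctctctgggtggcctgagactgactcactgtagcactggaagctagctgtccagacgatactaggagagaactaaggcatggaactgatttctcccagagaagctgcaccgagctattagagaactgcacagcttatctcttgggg
The Nanos3 promoter (chr8:84176553-84176802) held a peak at 0 h only.
Nanos3 promoter: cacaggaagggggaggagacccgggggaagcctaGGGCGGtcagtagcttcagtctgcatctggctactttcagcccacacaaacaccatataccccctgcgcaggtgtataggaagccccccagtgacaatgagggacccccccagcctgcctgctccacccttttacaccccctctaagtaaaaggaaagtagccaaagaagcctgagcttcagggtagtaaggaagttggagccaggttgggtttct
The Upp1 region (chr11:9122381-9122580) had peaks up to 18 h and none after.
Upp1 4456: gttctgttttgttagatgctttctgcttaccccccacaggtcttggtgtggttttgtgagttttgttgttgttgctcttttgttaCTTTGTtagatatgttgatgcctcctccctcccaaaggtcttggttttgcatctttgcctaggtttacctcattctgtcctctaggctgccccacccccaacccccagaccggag
The Cdh1 region (chr8:106674477-106674676) had its highest peak at 120 h.
Cdh1 71192: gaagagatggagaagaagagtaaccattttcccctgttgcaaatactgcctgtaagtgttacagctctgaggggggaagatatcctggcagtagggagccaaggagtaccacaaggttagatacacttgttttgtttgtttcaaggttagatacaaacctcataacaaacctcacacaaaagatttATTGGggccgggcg

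The upstream Neurog3 window held CCAAT at positions 15 to 19 and CTTTGT at positions 122 to 127, counted from its first base. The Upp1 window held CTTTGT at positions 86 to 91 and the Cdh1 window held ATTGG at positions 187 to 191. The Nanos3 promoter held GGGCGG at positions 35 to 40. None of the letters searched occurred in the Neurog3 window at +2558 bp. Such a match describes the sequence and is no evidence that a factor binds there.

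Over windows of 200 bp at the summits of all 54 regions, AGGTCA, the half-site of nuclear receptors, occurred in 13 (24.1%), beside 10.6% of the windows of all 87144 regions. These 13 windows lay at Zbtb16 (3), Cdh1 (3), Lin28a (3), Nanos3 (2), Sall4 (1) and Upp1 (1). Direct repeats of AGGTCA with a spacing of 5 or 2 bases, which RA receptors bind, occurred in no member window, and in 0.0138% and 0.0126% of all windows. ACAAAG occurred in 14 member windows (25.9%, beside 19.2% of all), the other SOX motif AACAAT in 3 (5.56%, beside 11.3%) and the forkhead motif GTAAACA in 2 (3.7%, beside 3.75%). GGGCGG occurred in 14 (25.9%, beside 19.3%), CCAAT in 14 (25.9%, beside 25.3%), TATAAA in 4 (7.41%, beside 5.55%), the E-box CACGTG in 4 (7.41%, beside 5.29%) and the CRE TGACGTCA in 1 (1.85%, beside 0.845%). The mean GC content of the windows was 56% in the members and 53.6% in all regions. These shares were not tested. A RefSeq promoter sequence was matched for 5 of the 10 genes (Foxo1, Lin28a, Nanos3, Neurog3 and Upp1), and GGGCGG occurred in the promoters of Foxo1, Lin28a, Nanos3 and Upp1, beside 35.7% of 32851 promoters.

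The libraries differed in how many peaks were called, and this bears on every count below. All had been reduced by the authors to the same number of tags, and they still held between 24643 and 72215 peaks, the highest 2 numbers both at 0 h. A library without a peak in a region has a signal under the calling limit there, the lowest called summit being 24 or 25. The median log2 height over regions shared by all libraries was 7.81 and 8.08 at 0 h, then 6.51 and 6.86 by 18 h, 6.43 and 6.67 by 48 h and 7.38 and 6.73 by 120 h. The fall of peak height after 0 h was thus general, and each comparison over the 10 genes is given both on the deposited scale and relative to the median region, that is, after the median log2 height of each library was made equal (median centring). Start peaks of all 6 germ cell markers (Ddx4, Dazl, Piwil2, Mael, Tex101 and Rhox13) were present in every library, their summed height being 2464 and 3174 at 0 h and 957 to 2167 later. Of 7 Sertoli cell markers, 6 had a start peak in each 0 h library, with sums of 623 and 839, and 3 or 4 had one later, with sums of 144 to 306. Fshr had none in any library, whereas Wt1 and Aard had one in all 8. All 5 peritubular myoid markers had one in each 0 h library, with sums of 512 and 601, against 1 to 3 later with sums of 86 to 276. Of the other lists, Leydig cell markers had 1 of 7 at 0 h and at most 1 later, with sums of 0 to 77 and no start peak for Cyp11a1, Cyp17a1, Hsd3b1, Star, Insl3 or Nr5a1. Macrophage markers had 1 or 2 of 5 at 0 h and none later, with sums of 166 and 208 at 0 h and no start peak for Adgre1, Ptprc or Cx3cr1. Endothelial markers had 2 of 4 at 0 h and 1 or 2 later, with sums of 185 and 266 and then 38 to 94, and none for Pecam1 or Cdh5. Spermatocyte markers had 5 of 5 at 0 h and 4 or 5 later, with sums of 878 and 1392 and then 415 to 834. Start peaks of Sertoli and peritubular myoid markers were thus most frequent at 0 h. Their sums at 120 h were 306 and 152 (Sertoli cells) and 276 and 86 (peritubular myoid cells), beside 2167 and 1804 for germ cell markers. The part of somatic cells in the members' changes was not tested.

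Peaks of the 10 genes were most frequent at 0 h and every gene but Nanos3 kept a peak in at least 1 library at each timepoint. The members held 38 and 44 peaks in the 0 h libraries, then 22 and 23 by 18 h, 19 and 21 by 48 h and 27 and 17 by 120 h. All 10 genes had a peak in both libraries at 0 h, while 9 had one by 18 h, 9 by 48 h and 8 by 120 h. The same shares over all genes were not counted, so these numbers are not read as a trait of the members. Counting a region at a timepoint when both of its libraries had a peak, 35 member regions were counted at any timepoint. Of these, 33 (94.3%) were counted at 0 h, beside 96.3% of all regions, and then 18 (51.4%, beside 39.2%) by 18 h, 16 (45.7%, beside 36.2%) by 48 h and 15 (42.9%, beside 36.1%) by 120 h. Of the 35 regions, 11 (31.4%) were counted at 0 h only, beside 49.8% of all regions, and 10 (28.6%) were counted at all 4 timepoints, beside 25.3% of all regions. Of the 11, 6 had no later peak in any library, 3 had 1 later peak, 1 had 2 and 1 had 3, and the same split over all regions was not counted. These counts move with the number of peaks called, and with an equal number of the highest peaks taken from each library only 2 regions were left at 0 h only. Leaving out 0 h replicate 1, they became 22. The map of the 54 regions shows both the regions held throughout and those seen at 0 h alone.

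**Figure D1:**
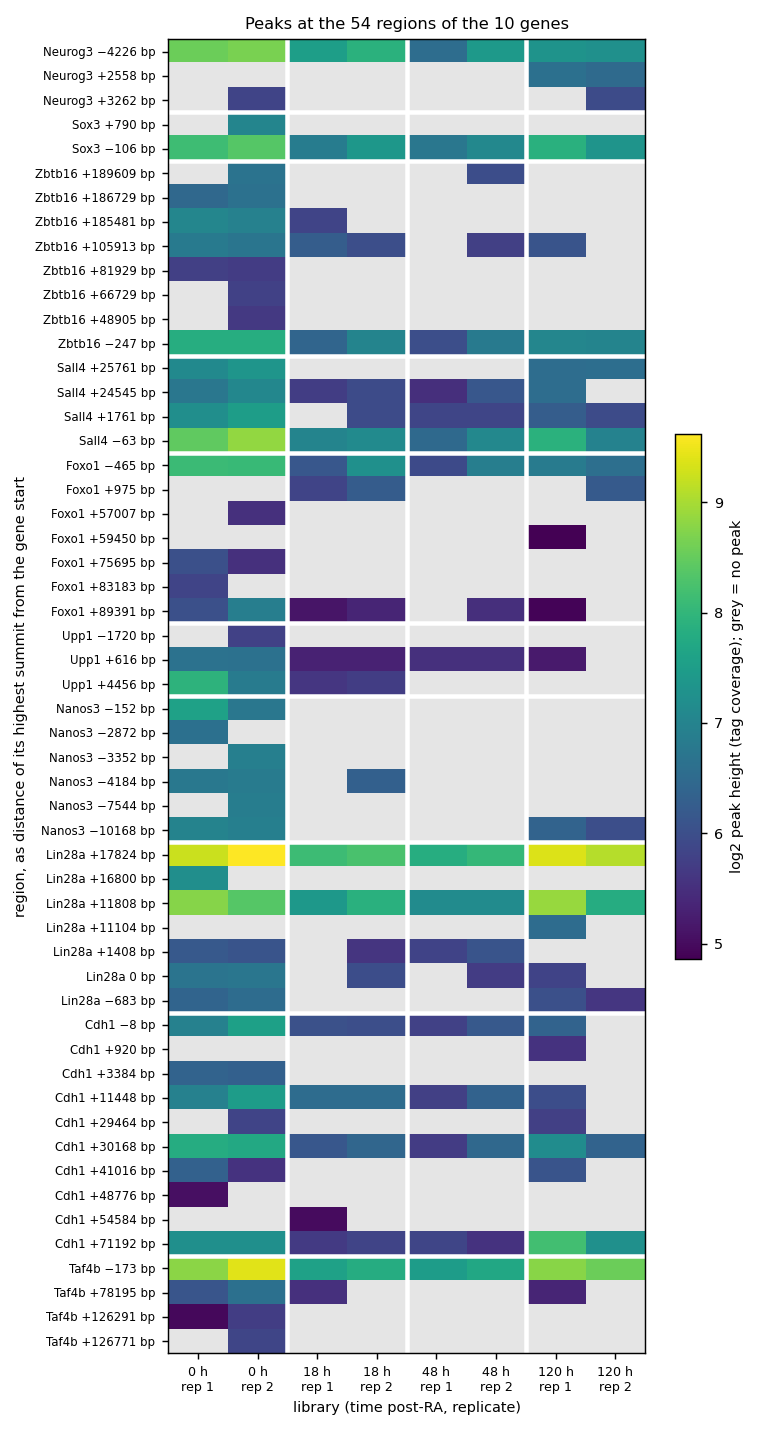
Log2 peak height (colour, tag coverage at the summit) in each of the 8 libraries (columns) at the 54 regions of the 10 genes (rows, by distance from the gene start), with grey where no peak was called. Of these regions 10 carried a peak in all 8 libraries, 33 were counted at 0 h and 15 at 120 h.

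Both 0 h libraries had more peaks than any later library at 4 of the 10 genes, Zbtb16, Foxo1, Nanos3 and Taf4b, beside 36.9% of all genes. With 2 against 6 libraries there are 28 splits, so that an exact two-sided permutation test with the smaller tail doubled cannot go below p = 0.0714, and these 4 genes were at that floor. For the other 6 genes the exact permutation p lay between 0.143 (Lin28a) and 1 (Neurog3). The libraries overlapped for Neurog3, Sox3, Sall4, Upp1, Lin28a and Cdh1, as the bars of peak numbers show.

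**Figure D2:**
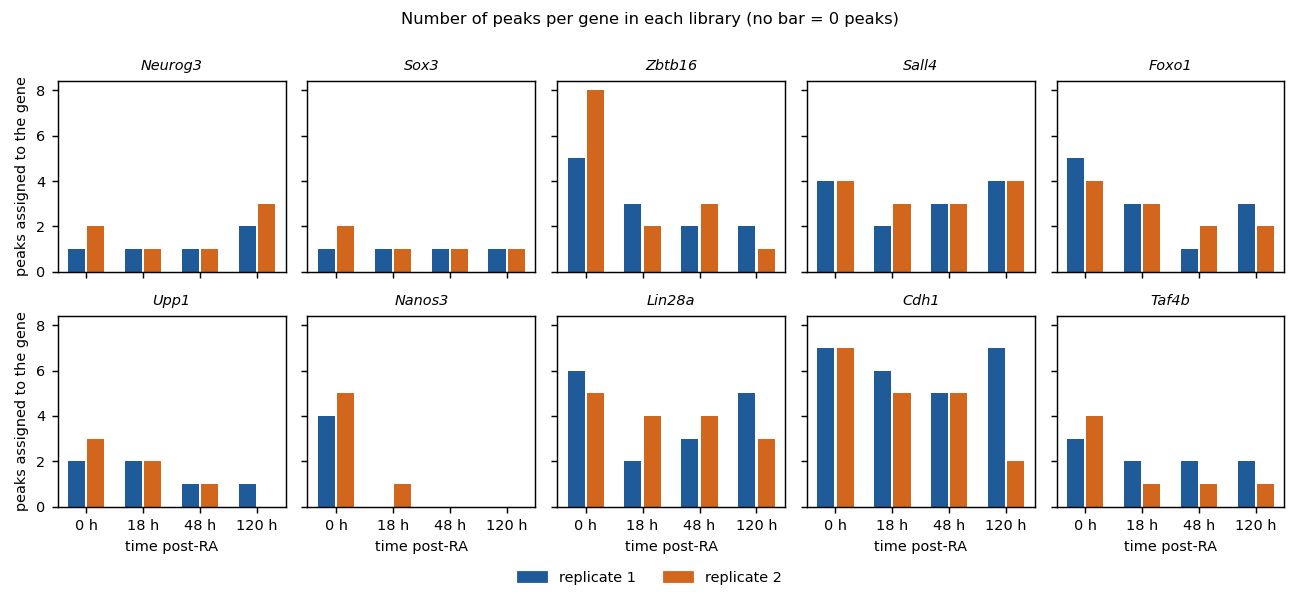
Number of peaks assigned to each of the 10 genes (y axis, counts) in each library by time post-RA (x axis), with 1 bar per library. Nanos3 fell from 4 and 5 peaks at 0 h to 1 peak in 1 library at 18 h and none after, whereas Neurog3 had 2 and 3 peaks at 120 h against 1 and 2 at 0 h.

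By position, 13 of the 54 regions (24.1%) lay within 1000 bp of the start of their member gene. Of all regions, 18.7% lay within 1000 bp of the start of any gene assigned to them. The members were measured to their own gene alone, so these start shares are not measured alike. On a CpG island were 13 (24.1%) of the member regions, beside 18.1% of all regions. By the gene models of the deposited table another 20 lay inside the gene away from its start, 7 upstream and 14 downstream. On GENCODE, 4 of these 7, all at Nanos3, and 1 of these 14, at Foxo1, lay inside the gene. A start region was found for 9 genes, and Neurog3 was the 1 member without any. In 15 of the 54 regions the peak was also assigned to a further gene, so that it cannot be ascribed to the member alone. Of the 10 regions held in all libraries, 5 lay at a start.

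In these 10 regions the height was lower at 18 h and 48 h than at 0 h, and rose again at 120 h in some. They were Neurog3 -4226, Sox3 -106, Zbtb16 -247, Sall4 -63, Foxo1 -465, Lin28a +17824, Lin28a +11808, Cdh1 +30168, Cdh1 +71192 and Taf4b -173. Both 0 h heights were above every later height in 7 of the 10, beside 67.7% of the 15536 regions called in all 8 libraries. The exceptions were both Lin28a regions and Cdh1 +71192, where a 120 h library was higher than a 0 h library. The plot of heights by library gives all values.

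**Figure D3:**
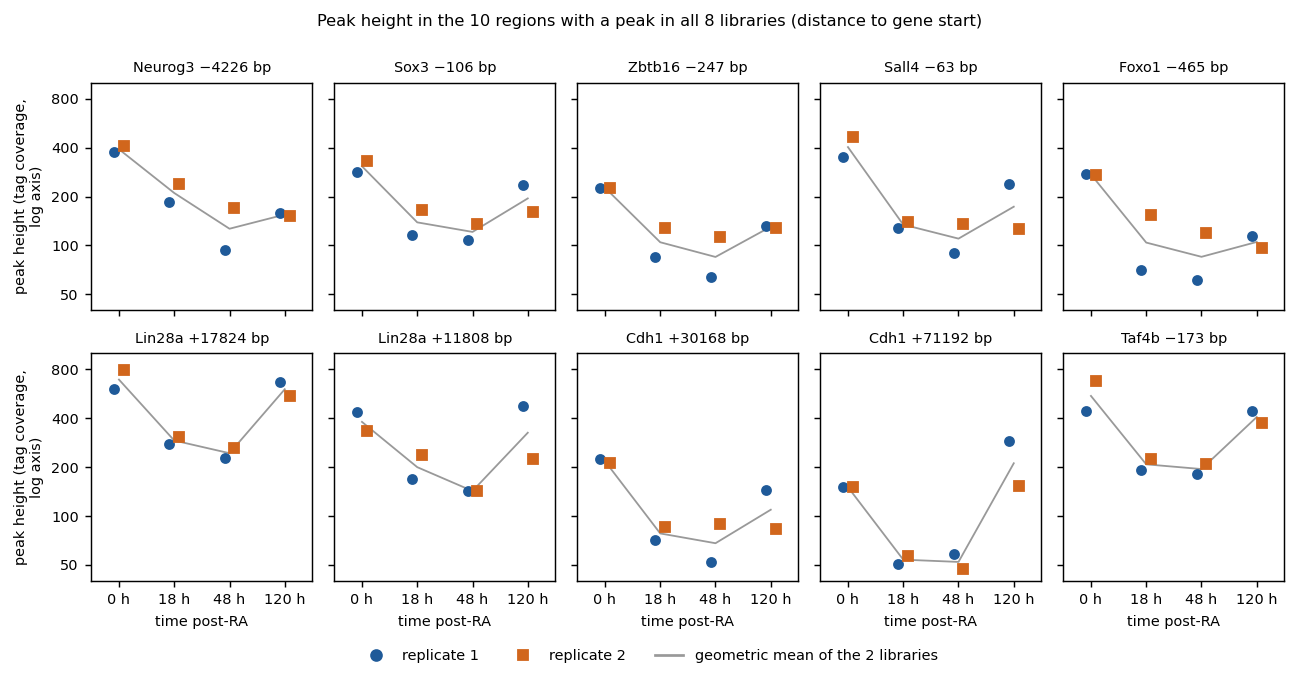
Peak height (y axis, tag coverage at the summit, log axis) in the 10 regions called in all 8 libraries by time post-RA (x axis); points are single libraries and the line joins the geometric means of the 2 libraries per timepoint. Heights were lower at 18 h and 48 h than at 0 h in all 10 panels, and Cdh1 +71192 was at 291 and 153 at 120 h.

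Among the transcription factors, Neurog3, a basic helix-loop-helix protein that marks progenitors (chr10:62133090-62134763, forward strand), carried its main peak upstream, in an intron of Fam241b on GENCODE (chr10:62128607-62129510). Its height was 374 and 408 at 0 h, then 185 and 239 by 18 h, 94 and 171 by 48 h and 158 and 152 by 120 h. It was higher at 0 h than in any later library, and at 120 h it stayed lower by the log2 change of -1.33 (SE 0.37, adjusted p = 0.0015, limma with Benjamini-Hochberg adjustment). Relative to the median region this change was -0.44 (SE 0.25), with an adjusted p of 0.174 by limma with Benjamini-Hochberg adjustment. A second Neurog3 region, at +2558 bp and also in a Fam241b intron, had heights of 98 and 91 at 120 h and no peak at any earlier time. It was the 1 member region (2.86% of 35) counted at 120 h only, beside 2.49% of all regions. A region at +3262 bp had peaks in 0 h replicate 2 (57) and 120 h replicate 2 (62) alone.

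Sox3, an HMG-box factor on the X chromosome (chrX:60891366-60893430, reverse strand), kept a peak over its start on a CpG island (chrX:60893069-60894390). Its height was 284 and 332 at 0 h, then 116 and 166 by 18 h, 108 and 136 by 48 h and 237 and 160 by 120 h. All later libraries were below both 0 h libraries. The log2 change at 120 h was -0.66 (SE 0.37), which did not pass (adjusted p = 0.135, limma with Benjamini-Hochberg adjustment), although it passed without 120 h replicate 1 (-0.94, adjusted p = 0.0264 by the same limma fit with Benjamini-Hochberg adjustment). Inside its coding sequence a peak of 131 at +790 bp was present in 0 h replicate 2 only.

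Zbtb16, which codes for the repressor PLZF needed to maintain undifferentiated spermatogonia (chr9:48654297-48836222, reverse strand), had 5 and 8 peaks at 0 h, then 3 and 2 by 18 h, 2 and 3 by 48 h and 2 and 1 by 120 h. Its start peak on a CpG island (chr9:48835636-48836710) was present throughout, at 227 and 226, then 85 and 129, then 64 and 113, and then 132 and 129 at 120 h. The loss of peaks was therefore in the gene body and downstream, while the start kept its peak. The intron region at +81929 bp (chr9:48753766-48754146) had heights of 54 and 52 at 0 h and no later peak. Downstream, the region at +186729 bp (chr9:48648975-48649563) had 88 and 100 at 0 h and no later peak. Its neighbour at +185481 bp had 132 and 124 at 0 h and 57 in 18 h replicate 1. An intron region at +105913 bp persisted in part, with 112 and 104 at 0 h, then 77 and 64 by 18 h, and single peaks of 54 (48 h replicate 2) and 68 (120 h replicate 1). The difference in peak number, 4.33 peaks between the means of 0 h and of all later libraries, was 0.333 when an equal number of the highest peaks was taken from each library.

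Sall4, a zinc finger factor of undifferentiated spermatogonia (chr2:168748332-168767943, reverse strand), kept 4 and 4 peaks at 0 h, then 2 and 3 by 18 h, 3 and 3 by 48 h and 4 and 4 by 120 h. Its start region on a CpG island (chr2:168766442-168767475) was at 351 and 462, then 129 and 140, then 90 and 135, and then 238 and 126. At 48 h this was the largest fall among the 10 shared regions, a log2 change of -1.87 (SE 0.37, adjusted p = 5.69e-06, limma with Benjamini-Hochberg adjustment), and at 120 h the change was -1.22 (adjusted p = 0.00388, by the same limma fit with Benjamini-Hochberg adjustment). Relative to the median region neither passed, the changes being -0.48 at 48 h (adjusted p = 0.238) and -0.33 at 120 h (adjusted p = 0.233, both by limma with Benjamini-Hochberg adjustment). On the deposited scale the 120 h change lost its call without 0 h replicate 2 (-1.02, adjusted p = 0.102) or without 120 h replicate 2 (-0.76, adjusted p = 0.138, both by limma with Benjamini-Hochberg adjustment). Downstream, at +25761 bp and in an intron of Atp9a, to which the peak is also assigned, heights were 139 and 162 at 0 h and 95 and 96 at 120 h, with no peak at 18 h or 48 h. An intron region at +1761 bp on a CpG island had 148 and 182 at 0 h, 62 in 18 h replicate 2, 58 and 58 at 48 h, and 77 and 62 at 120 h.

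Foxo1, a forkhead factor that the PI3K pathway keeps out of the nucleus (chr3:52268336-52353221, forward strand), had 5 and 4 peaks at 0 h, then 3 and 3 by 18 h, 1 and 2 by 48 h and 3 and 2 by 120 h. Its start region on a CpG island (chr3:52267579-52269055) was at 277 and 270, then 71 and 153, then 61 and 119, and then 114 and 97. Height there had not returned by 120 h (log2 change -1.38, SE 0.37, adjusted p = 0.00101, limma with Benjamini-Hochberg adjustment). After median centring the change was -0.49 (SE 0.29, adjusted p = 0.196, limma with Benjamini-Hochberg adjustment). A coding region at +975 bp, also on a CpG island, was the 1 member region counted at 18 h only, beside 0.338% of all regions, with 57 and 76 at 18 h, 74 in 120 h replicate 2 and no peak at 0 h. The intron region at +75695 bp had 65 and 46 at 0 h and no later peak.

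Of the RNA-binding proteins, Nanos3, known for keeping germ cells alive in the embryo, lost its peaks. RefSeq places the gene at chr8:84173733-84176552 on the reverse strand, and a longer GENCODE model reaches to 84185217. The 0 h libraries held 4 and 5 of its peaks, the 18 h libraries 0 and 1, and the 4 libraries of 48 h and 120 h none. Of the 20600 genes with a peak in both 0 h libraries, 7.21% had none in these 4 libraries, and Nanos3 was the 1 member among them. Of the 5716 genes with at least 4 peaks in both 0 h libraries, 33 (0.577%) had none there. This count was chosen after the values of Nanos3 had been seen. Its start region at -152 bp (chr8:84176463-84176896) had 191 and 107 at 0 h and no later peak, and the peak is also assigned to Mir181c, Mir181d and 4930432K21Rik. The region at -4184 bp had 109 and 115 at 0 h and 80 in 18 h replicate 2. Single peaks at -2872 bp (98), at -3352 bp (120) and at -7544 bp (118) were each seen in 1 of the 0 h libraries. At -10168 bp a region of 127 and 120 at 0 h had peaks of 83 and 64 at 120 h again, but these later peaks were not assigned to Nanos3, since their summits, 10953 and 10937 bp before the RefSeq start, lay beyond the 10 kb limit of the assignment. These summits are 2288 and 2272 bp from the end of the longer GENCODE model. Farther out, 7040 to 7616 bp beyond that model, both 48 h libraries had peaks (59 and 78 in replicate 1, 61 and 95 in replicate 2). So did both 120 h libraries (141 in replicate 1, 65 and 101 in replicate 2), and these peaks were assigned to no gene. The loss of Nanos3 peaks thus holds for the short model of the deposited table and the 10 kb around it, and, on the GENCODE model, for the gene itself but not for the 10 kb around it. When an equal number of the highest peaks was taken, the difference between the mean of 0 h and of all later libraries was 3.33 peaks, beside 4.33 with all peaks.

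Lin28a, which blocks the maturation of let-7 (chr4:134003330-134018841, reverse strand), had its 2 highest regions downstream of the start, and both rose from 48 h to 120 h on the deposited scale, as did the one at +17824 bp after centring. The region at +17824 bp, on a CpG island and also assigned to Dhdds (chr4:134000532-134001343), was at 604 and 788 at 0 h, then 279 and 304 by 18 h, 226 and 262 by 48 h and 666 and 544 by 120 h. The intron region at +11808 bp, also assigned to Dhdds (chr4:134006745-134007437), was at 434 and 331, then 169 and 236, then 143 and 142, and then 472 and 224. In both, the 0 h and 120 h libraries overlapped, and the 18 h and 48 h libraries lay below them, except that at +11808 bp 18 h replicate 2 was slightly above 120 h replicate 2. Closer to the start they were lower, with 103 and 106 at 0 h at 0 bp, followed by 63 in 18 h replicate 2, 52 in 48 h replicate 2 and 56 in 120 h replicate 1. At -683 bp the heights were 84 and 93 at 0 h and 65 and 49 at 120 h, with no peak at 18 h or 48 h. Lin28a had 6 and 5 peaks at 0 h, then 2 and 4 by 18 h, 3 and 4 by 48 h and 5 and 3 by 120 h. With an equal number of the highest peaks per library its mean was lower at 0 h than later by the difference of -0.67 peaks.

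Taf4b, a subunit of TFIID made in germ cells (chr18:14783245-14900359, forward strand), had 3 and 4 peaks at 0 h and 1 or 2 in every later library. Its start region on a CpG island (chr18:14782854-14783895) was at 442 and 678 at 0 h, then 192 and 225 by 18 h, 180 and 210 by 48 h and 440 and 375 by 120 h. The later libraries were below the 0 h libraries, by only 2 units in the nearest pair. In the gene body at +78195 bp, heights were 69 and 98 at 0 h, with single later peaks of 46 (18 h replicate 1) and 41 (120 h replicate 1). At +126291 bp, downstream of the GENCODE model and inside a longer RefSeq one, they were 31 and 53 at 0 h, with no later peak. The value of 31 lies near the lowest called summit of 24 or 25. At +126771 bp a peak of 58 was called in 0 h replicate 2 only. With an equal number of the highest peaks, the difference in peak number turned to -0.333.

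Cdh1, E-cadherin, the adhesion protein at the surface of undifferentiated spermatogonia (chr8:106603351-106670246, forward strand), had 7 and 7 peaks at 0 h, then 6 and 5 by 18 h, 5 and 5 by 48 h and 7 and 2 by 120 h. The numbers for 18 h and 48 h count more than 1 peak per library within the region at +71192 bp. Its start region on a CpG island (chr8:106603149-106603926), shared with 1110028F18Rik, was at 123 and 190, then 66 and 64, then 55 and 73, and had 83 in 120 h replicate 1 and no peak in 120 h replicate 2. A further start peak at +920 bp, in the coding sequence, was present in 120 h replicate 1 only, at 47. The intron region at +30168 bp (chr8:106633092-106633776) was at 223 and 212, then 71 and 86, then 52 and 89, and then 144 and 83. At +3384 bp an intron region had 83 and 80 at 0 h and no later peak.

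The downstream Cdh1 region at +71192 bp, intergenic and also assigned to Tango6 (chr8:106674321-106675433), was highest at 120 h. Its height was 150 and 151 at 0 h, then 51 and 57 by 18 h, 58 and 47 by 48 h and 291 and 153 by 120 h. The region joined 12 peaks of the 8 libraries, since those of 18 h and 48 h had more than 1 peak there. The highest peak of each library was used, so a rise to 120 h compares the highest of several peaks with a single peak. Both 120 h libraries were above both 0 h libraries, replicate 2 only narrowly (153 against 151). At 120 h replicate 1 was above replicate 2 by more than any earlier pair of replicates differed. On the deposited scale the log2 change from 0 h to 120 h was 0.49 and did not pass (SE 0.37, adjusted p = 0.279, limma with Benjamini-Hochberg adjustment). From 48 h to 120 h the log2 change was 2.01 (SE 0.37, adjusted p = 5.71e-05, limma with Benjamini-Hochberg adjustment), at percentile 99.9 of the changes of all 15536 regions. With the libraries' medians made equal it was 1.51 (SE 0.23, adjusted p = 0.00736, limma with Benjamini-Hochberg adjustment). Without 48 h replicate 2 this last value was 1.24, with an adjusted p of 0.112 by limma with Benjamini-Hochberg adjustment.

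Upp1, uridine phosphorylase, an enzyme of pyrimidine salvage (chr11:9118103-9136170, forward strand), had no region with a peak in all libraries. Its highest region lay in an intron at +4456 bp (chr11:9122149-9122714), with 245 and 115 at 0 h, 49 and 53 at 18 h and no peak at 48 h or 120 h. The region at +616 bp in an untranslated part of the gene had 101 and 100 at 0 h, then 40 and 40 by 18 h, 46 and 46 by 48 h and 37 in 120 h replicate 1. Height at the Upp1 start was therefore nearly the same at 18 h and 48 h, while the intron peak was no longer called at 48 h. Upp1 had 2 and 3 peaks at 0 h, then 2 and 2 by 18 h, 1 and 1 by 48 h and 1 and 0 by 120 h.

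Whether peak height at these genes differed between the timepoints was then tested by limma on log2 heights. The 4 timepoints were in 1 fit over the 15536 regions called in all 8 libraries. Against 0 h, differentiation, the age of the mice and the injection, which the 0 h mice did not receive, change together and cannot be told apart. The fit tests time only. It holds 10 of the 54 member regions, in 8 of the 10 genes, and regions that lost a peak were not in it. The 3 later timepoints were compared with the same 0 h libraries. The SE was 0.37 in each of the 10 regions on the deposited scale, since the fit shared 1 estimate of the spread.

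At 18 h all 10 member regions were lower than at 0 h, beside 92.3% of all regions, and none was higher, beside 0.296%. Their log2 changes ran from -1.58 (Sall4 -63) to -0.89 (Neurog3 -4226) with a median of -1.32, beside -1.23 over all regions. Without 18 h replicate 1 only 5 of the 10 passed. On the centred scale 0 of the 10 passed, beside 0.225% of regions lower and 1.25% higher, and none had an unadjusted p under 0.05 by limma. These changes then lay on both sides of 0, with 5 below and 5 above.

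At 48 h all 10 were again lower, beside 93.3% of all regions, and none was higher, beside 0.328%. The median log2 change was -1.52, beside -1.36 over all regions, and ran from -1.87 (Sall4 -63) to -1.34 (Sox3 -106). Relative to the median region 0 of the 10 passed, beside 1.51% lower and 3.26% higher, and 1 had an unadjusted p under 0.05 by limma. Of the 10 changes on that scale 9 were below 0, the median being -0.12. Between 18 h and 48 h none of the 10 passed, beside 0.00644% of all regions lower. All 10 values were below 0 (median log2 change -0.27, beside -0.13 over all regions), and 1 of them had an unadjusted p under 0.05 by limma. After median centring 0 of the 10 passed, beside 0% of all regions, 8 values were below 0 and 2 above (median -0.14), and 1 had an unadjusted p under 0.05 by limma. The plot of changes gives each member's value beside the median of all regions.

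At 120 h 4 of the 10 regions were lower than at 0 h, beside 44.8% of all regions, and none was higher, beside 0.882%. They were Foxo1 -465, Neurog3 -4226, Sall4 -63 and Cdh1 +30168, and the median log2 change of the 10 was -0.73, beside -0.75 over all regions. Without 0 h replicate 2, or without 120 h replicate 2, only 2 of the 10 passed. Cdh1 +30168 (log2 change -0.99, adjusted p = 0.0201, limma with Benjamini-Hochberg adjustment) also lost its call without 0 h replicate 1 (adjusted p = 0.0965, by the same limma fit with Benjamini-Hochberg adjustment). After median centring none of the 10 was lower, beside 15.8% of all regions, and 3 were higher, beside 23%. The 3 were Cdh1 +71192 (log2 1.38, SE 0.23, adjusted p = 0.00104), Lin28a +17824 (0.69, SE 0.21, adjusted p = 0.0188) and Lin28a +11808 (0.67, SE 0.25, adjusted p = 0.0463, all by limma with Benjamini-Hochberg adjustment). The Cdh1 region is also assigned to Tango6 and both Lin28a regions to Dhdds, so none of the 3 rises can be ascribed to the member alone. Without 120 h replicate 2 only 1 of the 10 passed, and Lin28a +17824 also lost its call without 0 h replicate 1 (adjusted p = 0.0914, limma with Benjamini-Hochberg adjustment). Lin28a +11808 lost it in 7 of the 8 fits that left out a library, all except the fit without 0 h replicate 1.

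**Figure D4:**
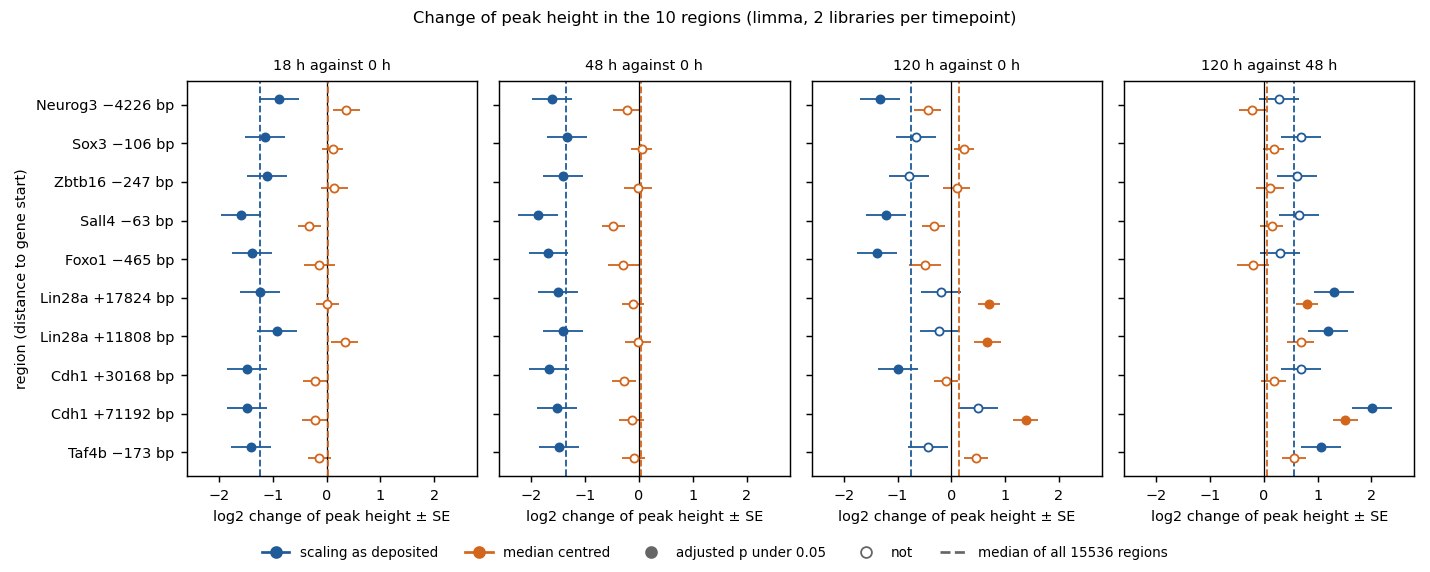
Log2 change of peak height ± SE (x axis) in the 10 member regions (y axis) for 4 comparisons, on the deposited scale (blue) and relative to the median region (orange); filled points had an adjusted p under 0.05 in limma, and dashed lines mark the median of all 15536 regions. On the deposited scale all 10 regions were filled and below 0 at 18 h and 48 h, close to the dashed line, and at 120 h against 48 h Cdh1 +71192 lay farthest to the right.

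Between 48 h and 120 h 4 of the 10 regions were higher, beside 23.7% of all regions, and none was lower, beside 0.18%. All 10 changes were above 0 with a median of 0.68, beside 0.56 over all regions. The 4 were Cdh1 +71192, Lin28a +17824 (log2 change 1.31, adjusted p = 0.0103), Lin28a +11808 (1.19, adjusted p = 0.0162) and Taf4b -173 (1.06, adjusted p = 0.0272, all by limma with Benjamini-Hochberg adjustment). Only 1 of the 10 passed without 48 h replicate 1, without 48 h replicate 2 or without 120 h replicate 1, and 7 passed without 120 h replicate 2. With the libraries' medians made equal 2 passed, Cdh1 +71192 and Lin28a +17824 (0.80, adjusted p = 0.0272, limma with Benjamini-Hochberg adjustment), beside 9.47% of all regions, and none was lower, beside 7.45%. Both are also assigned to a further gene, Tango6 and Dhdds. Of the 2, 1 was left without 48 h replicate 1 or without 120 h replicate 2, and 0 without 48 h replicate 2. After centring the change of Lin28a +11808 was 0.69 (adjusted p = 0.0669) and that of Taf4b -173 was 0.56 (adjusted p = 0.082, both by limma with Benjamini-Hochberg adjustment). On the deposited scale Taf4b -173 also lost its call with the mean signal of the peak (0.75, adjusted p = 0.0583) and in a fit of only the libraries compared (1.06, adjusted p = 0.0644, both by limma with Benjamini-Hochberg adjustment). With missing heights set to the lowest value, where more regions were tested, Lin28a +11808 (adjusted p = 0.189) and Taf4b -173 (adjusted p = 0.096, both by limma with Benjamini-Hochberg adjustment) did not pass. Among the 6 regions that did not pass, the changes on the deposited scale ran from 0.29 (Neurog3 -4226) to 0.68 (Cdh1 +30168). Differences between regions were not tested.

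Genes on either side of the progenitor stage were read from the same fit for comparison. Of 15 genes of the stem cell and GDNF side (among them Gfra1, Ret, Id4 and Etv5), 11 had a region with a peak in all libraries, 20 regions in all, and of 15 genes of the differentiation and RA side (among them Kit, Stra8, Sohlh1 and Dnmt3b), 12 had 22. At 18 h, 20 of the 20 stem cell side regions and 17 of the 22 differentiation side regions were lower than at 0 h, with median log2 changes of -1.46 and -0.99, beside 92.3% of all regions lower. At 48 h the counts were 20 and 18, beside 93.3% of all regions, and at 120 h 11 and 9, beside 44.8%, with no region higher at any of these times. On the centred scale, at 18 h no stem cell side region passed, and Kit, the receptor of differentiating spermatogonia (log2 1.37, adjusted p = 0.00264), and 1 region of Stra8, the RA target (1.45, adjusted p = 0.00316, both by limma with Benjamini-Hochberg adjustment), were higher. Of all regions 1.25% were higher on that scale. On the deposited scale those 2 regions changed by 0.11 and 0.19. At 48 h after centring 1 stem cell side region, of Egr4, was lower, beside 1.51% of all regions, and 3 differentiation side regions, of Ccnd2, Kit and Stra8, were higher, beside 3.26%. At 120 h relative to the median region, 5 of the 20 stem cell side regions were lower and 4 higher, and 1 of the 22 differentiation side regions was lower and 7 were higher, beside 15.8% of all regions lower and 23% higher. The difference between the lists and the 10 genes was not tested.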

How the data were processed

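ATAC-seq libraries, 2 for each of 4 timepoints, came from sorted germ cells. The authors mapped the reads with BWA 0.7.12 to mm10, removed duplicates, extended tags, reduced all libraries to equal tags and called peaks in each library with MACS2 2.1.0 without a control. The deposited table gives, for each peak, the tag coverage signal at the summit and its mean over the peak, and the genes within 10 kb. Per-region read counts were not analysed here, so the depth behind a peak is unknown and no interval for counting error is given. With 2 libraries a group, p-values of the fit measure only the spread between these libraries, each of 1 mouse. On the deposited scale this spread was 1 estimate shared over regions and timepoints, and not that of the single region.

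Overlapping peaks (at least 1 bp) were merged into regions. Where a library had several peaks in a region, the highest was used. Log2 summit signal in regions with a peak in all 8 libraries was compared with limma 3.58.1 in R 4.3.3 (4 groups, no block, Benjamini-Hochberg adjustment over all 15536 regions, threshold 0.05), on the deposited scale and after median centring. Peak numbers were compared with exact permutation tests in Python 3.11.15 with scipy 1.17.1. Merging and fit were tested on simulated data. With simulated centred heights, 44% of regions changed at 18 h by a log2 of 1 were called, and 95.5% of those changed by 2. Smaller relative changes can thus be missed. Features at summits came from GENCODE vM21 and sequences from RefSeq, both on GRCm38.

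Regions named were those with a peak in all 8 libraries, the highest region of a gene with none, those within 1000 bp of a member's start, and those called in both libraries of 1 timepoint and no other with a lower value of at least 50. Many others, among them most of the Nanos3 regions, were named after their values were seen. The members and lists were chosen with earlier results of these data known.

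Alternatives were quantile normalization, the mean signal, a replicate block, only the libraries compared, an intensity trend, missing heights set to the lowest value, peaks of at least 50, equal numbers of highest peaks, peaks in the gene or at its start, 50% overlap, a peak in either library, a start limit of 3000 bp and each library left out. Centring with a library left out, or with missing heights set to the lowest value, was added after the data were seen. The centred scale was treated as a set of results of its own after a first look at the settings, and single regions were followed through the settings on that scale only where they had passed on it in at least 1 comparison.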

Additional observations from a re-analysis of the deposited data

How the results depend on the processing

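Median centring removed the calls of lower regions (0 of 10 at 18 h, at 48 h and at 120 h, with median log2 changes of -0.059, -0.12 and 0.16) and left 3 higher at 120 h against 0 h, and 2 higher with a median of 0.18 at 120 h against 48 h. It turned to above 0 the changes at 18 h of Neurog3 -4226 (0.37), Sox3 -106 (0.11), Zbtb16 -247 (0.15), Lin28a +17824 (0.015) and Lin28a +11808 (0.33), at 48 h of Sox3 (0.052), and at 120 h of Sox3 (0.23), Zbtb16 (0.10), Lin28a (0.69 and 0.67) and Taf4b -173 (0.46), and to below 0 those of Neurog3 (-0.21) and Foxo1 -465 (-0.20) between 48 h and 120 h. Quantile normalization likewise left 0 lower at each time (medians -0.10, -0.18 and 0.046), 1 higher at 120 h against 0 h, and 1 higher at 120 h against 48 h (median 0.11). It turned Neurog3 (0.37), Sox3 (0.12), Zbtb16 (0.15) and Lin28a +11808 (0.34) at 18 h, Sox3 (0.079) at 48 h, Sox3 (0.074), Zbtb16 (0.083), Lin28a (0.15 and 0.34) and Taf4b (0.018) at 120 h, and Neurog3 (-0.35), Sox3 (-0.0045) and Foxo1 (-0.12) between 48 h and 120 h. Both settings remove by construction a change shared by all regions.

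The replicate numbers were not found to pair the libraries (correlations of deviations between timepoints from -0.22 to 0.25), so the block is reported here only. With a replicate block the counts of lower regions stayed at 10, 10 and 4, and the count of higher regions at 4. With centring and the block the counts of lower regions were 0, 3 regions were higher at 120 h against 0 h and 3 against 48 h, and the changes, including the turned ones, were those of centring (medians -0.059, -0.12, 0.16 and 0.18).

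Missing heights set to the lowest value gave a fit with 35 member regions, of which 26, 27 and 23 were lower at 18, 48 and 120 h against 0 h, beside 81.5%, 83.9% and 68.6% of 61310 regions, and 1 was higher at 18 h and at 120 h, beside 0.346% and 2.44%, with a median of -1.25 at 120 h against 0 h and 0.25 against 48 h. Relative to the median region 1 was lower and 2 higher at 18 h (beside 1.05% and 2.73%), 2 and 2 at 48 h (beside 1.44% and 3.55%), and 6 lower at 120 h (median -0.36, beside 15.4% lower), with a median of 0.037 at 48 h against 18 h and 2 lower (median -0.25, beside 2.64%) at 120 h against 48 h. On the centred scale, 2 of the 25 regions not called in all libraries were higher at 120 h, beside 6.05% of all regions. Neurog3 +2558, which had no peak at 0 h, 18 h or 48 h, was among the higher regions at 18 h and 48 h (1.23 and 1.39). Without centring its changes were -0.029 and 0, so these rises came from the shift of the library medians and are no result about the region. Imputed values do not vary between replicates, so these fits understate the error.

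With a peak in either library, 54 regions were counted at any timepoint, 30 at 120 h, 18 at 0 h only, 18 at all 4 timepoints and 4 at 120 h only. With equal numbers of highest peaks the count at 0 h was 19, that at 0 h only was 2 and that at 120 h only was 2. The members' summed peaks at 0 h exceeded the later mean by 4 in place of 19.5, and Lin28a (-0.67) and Taf4b (-0.33) turned. Counting peaks in the gene or at its start gave 10.5, and 50% overlap gave 2 regions at 120 h only.

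With single libraries left out, the regions counted ranged from 15 to 28 at 120 h, from 8 to 22 at 0 h only and from 1 to 5 at 120 h only. The number of lower regions ranged from 5 to 10 at 18 h and from 2 to 5 at 120 h, and the number of higher regions at 120 h against 48 h from 1 to 7, with a median log2 change of 0.44 to 1.10. The change of Lin28a +11808 at 120 h against 0 h ranged from -0.76 to 0.32, and those of Neurog3 -4226 and Foxo1 -465 at 120 h against 48 h from -0.14 to 0.72 and from -0.18 to 0.79. After centring the median at 18 h ranged from -0.059 to 0.049, and the number of higher regions from 1 to 2 at 120 h against 0 h and from 0 to 3 against 48 h. A lone library left in a group was assumed to vary like the others. Heights under the calling limit were not known, which limits each comparison to peaks that were called.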
